A study of Mus musculus with 27 samples.

Results

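The fatty acid elongase family, Elovl1 to Elovl7, was followed in 3 tissues (liver, brain, bone marrow) of mice with a Mysm1 allele. All probes of the 7 genes were taken, which gave 11 of the 45281 probes on the array and 7 of its 19057 named genes. The family was chosen by measured values of these same arrays, namely its tissue levels and the homozygous liver contrasts of Elovl3 and Elovl6, so those values are given below as descriptions and no p is given for them. The series measured RNA on Illumina BeadChips from mice homozygous for the Mysm1 tm1a allele, heterozygous Mysm1+/tm1a mice and wild-type mice, all on the C57BL/6 background. Mysm1 is a histone H2A deubiquitinase, and the tm1a allele, made by KOMP, is a knockout-first allele carried in the germ line. Each of the 9 groups (3 genotypes in each of 3 tissues) had 3 arrays, 27 in all, taken as separate animals because the design text compares animals. Sex and age were not given in the sources used here.

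Elongases carry out the first and rate-limiting step of fatty acid elongation in the endoplasmic reticulum, where malonyl-CoA adds a pair of carbons to an acyl-CoA. A ketoreductase, a dehydratase and an enoyl reductase complete each cycle. Elovl1, Elovl3, Elovl6 and Elovl7 act mainly on saturated and monounsaturated acyl chains, Elovl2 and Elovl5 on polyunsaturated chains, and Elovl4 makes very long chains. In liver, Elovl6 is a lipogenic target of SREBP-1c and lengthens palmitate, whereas Elovl3 is known from brown fat and skin and, in mouse liver, for circadian and male-biased expression. Mutations of ELOVL4 in humans cause a macular dystrophy.

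Mean scanner signals were 281.9 to 361 in liver, 285.3 to 372.8 in brain and 92.1 to 228.4 in bone marrow, and the share of probes above background ran from 20% of probes on the dimmest marrow array to 44.4% on the brightest brain array. The 5 BeadChips were linked to the groups: homozygous livers shared a BeadChip with wild-type brains, while wild-type and heterozygous livers shared another. BeadChip and genotype therefore cannot be told apart for homozygous liver, for wild-type brain or for the marrow arrays labelled homozygous, which lay on a BeadChip of their own. The log2 intensity of the Mysm1 probe was 4.49 to 5.2 in homozygous, 6.48 to 6.64 in heterozygous and 7.29 to 7.59 in wild-type liver, and the 3 genotypes were equally separate in brain. In bone marrow it was 4.88, 6.48 and 6.95 on the arrays labelled homozygous, against 6.08 to 6.35 on heterozygous and 6.18 to 6.4 on wild-type arrays. The probe thus did not bear out 2 of the 3 homozygous labels, nor did it separate heterozygous from wild-type marrow. Marrow sums of 3 B lineage markers were 36 to 125 (labelled homozygous), 1340 to 2113 (heterozygous) and 1076 to 2534 (wild type). On these markers all labelled-homozygous arrays lay below both other genotypes. Whether the labels are right was not tested. The hepatocyte markers fixed for the liver check (8 genes) were bright in liver, although the Alb and Fgb probes were above background on 1 and 0 of the 9 liver arrays.

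Elovl1 had 4 probes for 3 RefSeq transcripts, Elovl6 had 2 probes, and the others had 1 each. A gene is represented by its probe with the highest mean. These are ILMN_3143506 for Elovl1, ILMN_2714222 for Elovl2, ILMN_2682207 for Elovl3, ILMN_1250507 for Elovl4, ILMN_2652757 for Elovl5, ILMN_2614752 for Elovl6 and ILMN_1258106 for Elovl7. The second Elovl6 probe, ILMN_1228218, was not above background (detection p of 0.05 or more) on any of the 27 arrays. Signals of different probes were never compared, since a probe's brightness depends on its sequence.

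Tissue levels come from a scaling of all 27 arrays together. Of the 7 genes, 5 had their highest wild-type mean in liver (Elovl1, Elovl2, Elovl3, Elovl5 and Elovl6) and 1 in brain (Elovl4). Wild-type Elovl3 was near background, at 5.17 in liver and 5.07 in bone marrow with overlapping arrays, so its place is not settled. Elovl7 had its highest mean in bone marrow, but it was not above background on any wild-type array. It was above background on 1 of 27 arrays, a heterozygous liver, so no tissue can be assigned to it.

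Elovl4, the elongase of very long chains known from retina and brain, stood furthest apart between tissues. Its log2 intensity averaged 4.40 ± 0.02 in wild-type liver, 9.28 ± 0.20 in wild-type brain and 5.04 ± 0.32 in wild-type bone marrow (SD, n = 3 each). The probe was above background on 9 of 9 brain arrays, on 0 of 9 liver arrays and on 2 of 9 marrow arrays. Brain was at least 18.9-fold brighter than liver in wild-type mice, at least 17.9-fold in heterozygous and at least 16.5-fold in homozygous mice. Each bound sets brain against the dimmest signal above background on the liver arrays. In such bulk samples, fewer cells of a type and less RNA per cell cannot be told apart.

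Elovl5, which elongates polyunsaturated chains, was above background on all 27 arrays. It averaged 12.76 ± 0.03 in wild-type liver, 10.59 ± 0.04 in wild-type brain and 9.28 ± 0.12 in wild-type bone marrow. Liver was 4.5-fold brighter than brain and 11.1-fold brighter than marrow, and no array of one tissue reached the next. Without scaling between arrays the log2 difference between liver and marrow was 5.27 in place of 3.48, with the same order of tissues. Elovl2, which acts on longer polyunsaturated chains, averaged 7.67 ± 0.14 in wild-type liver, 4.80 ± 0.13 in brain and 5.59 ± 0.27 in marrow. It lay above background on 9 of 9 liver arrays, 5 of 9 brain arrays and 6 of 9 marrow arrays, so outside liver it was close to background.

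Elovl6 was shared by liver and brain. Its wild-type means were 8.84 ± 0.47 in liver, 7.84 ± 0.19 in brain and 5.05 ± 0.59 in bone marrow. It was above background on every liver and brain array but on 1 of 9 marrow arrays. Liver and brain did not overlap in wild-type mice, whereas in homozygous mice the liver mean of 8.26 ± 0.30 and the brain mean of 7.82 ± 0.29 had overlapping arrays. Without scaling between arrays the wild-type liver minus brain difference was 0.20 in place of 1.00, and signals over background overlapped, at 352 to 837 in wild-type liver and 351 to 498 in wild-type brain.

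Elovl1, which makes saturated very long chains for sphingolipids, was above background in all 3 tissues. It averaged 9.58 ± 0.30 in wild-type liver, 7.32 ± 0.18 in brain and 8.88 ± 0.12 in marrow. Liver had the highest wild-type mean under the 5 scalings tried, although heterozygous liver and marrow arrays overlapped. The order of brain and marrow did not hold. Without scaling between arrays, Elovl1 was 8.15 in brain and 7.58 in marrow on the log2 scale, and Elovl2 was 4.32 in brain and 3.94 in marrow, so both orders turned round. Marrow arrays were the dimmest before scaling.

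Elovl3 was near background in wild-type mice everywhere. Its wild-type means were 5.17 ± 0.52 in liver, 4.51 ± 0.18 in brain and 5.07 ± 1.03 in bone marrow, with overlapping arrays, and it was above background on 2 of 3 liver, 1 of 3 brain and 1 of 3 marrow arrays. A place in the order of tissues rests on homozygous liver, at 7.77 ± 0.34, which was at least 8.5-fold brighter than homozygous brain, where no array was above background.

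**Figure D1:**
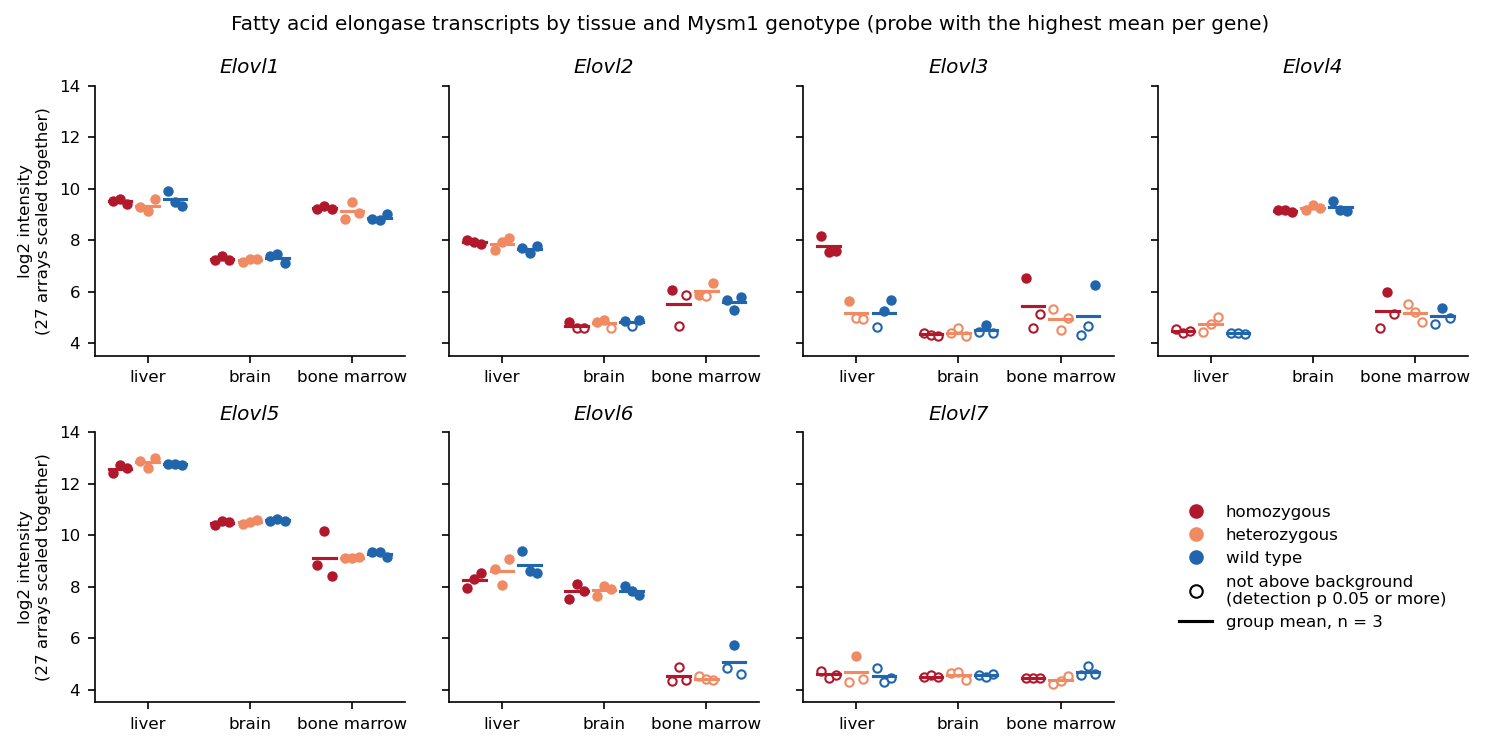
Log2 intensity of the brightest probe of each elongase gene (y axis, all 27 arrays scaled together) by tissue and genotype, with 3 arrays a group; open points were not above background and lines are group means. Elovl4 lies between 9.09 and 9.51 in brain and near background elsewhere, Elovl5 falls in 3 tiers, and Elovl3 is set apart in homozygous liver at 7.56 to 8.16. The marrow arrays drawn as homozygous carry that label only.

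Promoter windows of RefSeq (mouse build GRCm38.p6, 250 bases before to 50 after the start, on the gene's own strand) were at hand for 6 of the 7 genes; Elovl3 had none. Those shown belong to Elovl4, the gene highest in brain, to Elovl5, the gene with 3 tiers, and to Elovl6, the lipogenic gene set beside Elovl3. Capitals mark matches, on either strand, to any of 5 motifs. These were the CCAAT box (CCAAT), the GC box (GGGCGG), the E-box (CACGTG), the cAMP response element (TGACGTCA) and a sterol response element (TCACNCCAC). Elovl4 starts at chr9:83806256-83806555 on the minus strand, Elovl5 at chr9:77917115-77917414 on the plus strand and Elovl6 at chr3:129532136-129532435 on the plus strand.
Elovl4: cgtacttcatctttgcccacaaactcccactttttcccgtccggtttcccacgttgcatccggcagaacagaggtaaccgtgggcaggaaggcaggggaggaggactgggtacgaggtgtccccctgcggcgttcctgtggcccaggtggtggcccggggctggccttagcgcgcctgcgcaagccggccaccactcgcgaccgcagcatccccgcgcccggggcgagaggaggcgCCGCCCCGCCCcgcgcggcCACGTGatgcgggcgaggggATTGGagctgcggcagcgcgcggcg
Elovl5: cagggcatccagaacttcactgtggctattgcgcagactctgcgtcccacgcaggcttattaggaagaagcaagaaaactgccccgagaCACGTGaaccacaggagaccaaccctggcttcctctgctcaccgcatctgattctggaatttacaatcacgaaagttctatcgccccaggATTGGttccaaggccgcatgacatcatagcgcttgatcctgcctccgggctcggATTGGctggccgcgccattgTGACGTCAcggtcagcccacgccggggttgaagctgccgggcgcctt
Elovl6: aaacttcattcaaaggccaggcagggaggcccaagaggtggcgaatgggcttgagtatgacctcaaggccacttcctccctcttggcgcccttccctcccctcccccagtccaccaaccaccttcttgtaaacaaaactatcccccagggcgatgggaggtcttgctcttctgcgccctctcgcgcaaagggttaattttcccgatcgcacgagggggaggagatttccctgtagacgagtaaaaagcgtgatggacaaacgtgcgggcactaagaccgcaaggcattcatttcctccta
The Elovl4 window held 1 CCAAT box, 2 GC boxes and 1 E-box, the GC boxes overlapping in part. The Elovl5 window held 2 CCAAT boxes, 1 E-box and 1 cAMP response element. The Elovl6 window held 0 matches to the 5 motifs. Over all 32851 windows of this length, 37.4% held a CCAAT box, 35.7% a GC box, 7.2% an E-box, 1.8% a cAMP response element and 1.2% the sterol element. A match is a description of the letters only.

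Within liver, the 9 liver arrays were scaled by themselves and 5 of the 7 genes (Elovl1, Elovl2, Elovl3, Elovl5 and Elovl6) were above background on at least 3 arrays. Elovl3 was the 1 gene of these 5 past the threshold in homozygous against wild-type liver, a contrast that chose the family. Over all 11745 liver features 1.42% passed in that contrast (0.690% in homozygous against heterozygous liver, where Elovl3 was again the 1 gene past it). Nothing is read from either count. Arrays of homozygous and wild-type liver did not overlap for Elovl2, Elovl3 and Elovl6, 3 of the 5 genes, against 23.6% of all features, though for Elovl6 only beyond the 2 decimals printed below. Nothing is read from this count either, as the family was chosen on this contrast.

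Elovl3 lay at log2 intensities of 8.19, 7.53 and 7.57 on the homozygous liver arrays, at 5.40, 4.83 and 4.81 on the heterozygous and at 4.61, 5.03 and 5.42 on the wild-type arrays. All 3 homozygous arrays were far above both other genotypes, which overlapped each other. Before normalisation the scanner signals were 403.6, 273.5 and 279.5 on homozygous arrays, 120.1, 98 and 95.8 on heterozygous and 101.2, 108.9 and 117.9 on wild-type arrays. The level of background on the 9 arrays was 85.8 to 94.9, so the heterozygous and wild-type signals lay barely above it, and only 1 of 3 heterozygous and 2 of 3 wild-type arrays passed the detection threshold. Each signal averaged 27 to 49 beads, with a standard error over beads of 3.3% to 5.32% of the signal.

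The homozygous mean of Elovl3 was 7.76 ± 0.37 and the wild-type mean 5.02 ± 0.40 (SD, n = 3 each), a difference of 2.75 ± 0.25 (SE of the limma fit), or 6.7-fold. As a description only, since such values chose the family, this was the 7th highest of the 11745 differences in that contrast. Elovl3 was the 6th highest against heterozygous liver, where the difference was also 2.75 ± 0.25. Since the lower groups were near background, the size depended on the background correction: it was 1.91 with a larger offset, 1.45 without background correction and 1.5 in the deposited processed table. The direction was the same in each. As the homozygous livers were on a BeadChip of their own within liver, BeadChip and genotype cannot be told apart here.

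Brown fat and other fat express Elovl3, so fat markers were read on the same arrays. The 3 brown fat markers (Ucp1, Cidea and Cox8b) were above background on 0 of 9 liver arrays, and their summed signal was 16 to 21 in homozygous, 10 to 14 in heterozygous and 10 to 25 in wild-type liver. Of the 6 adipocyte markers measured, 1 was above background on each homozygous array, 0 or 1 on heterozygous and 0 to 2 on wild-type arrays. Their summed signal was 59 to 64 in homozygous, 52 to 73 in heterozygous and 49 to 84 in wild-type liver. The brown fat sums of homozygous liver overlapped those of wild-type but not of heterozygous liver. Sums of the neutrophil lineage markers were 172 to 432 in homozygous, 76 to 167 in heterozygous and 92 to 102 in wild-type liver, and those of the B lineage markers 24 to 42 in homozygous, 21 to 45 in heterozygous and 47 to 66 in wild-type liver. Of the 6 neutrophil lineage markers, 2 to 3 were above background on homozygous arrays and 1 to 2 on heterozygous and on wild-type arrays. Of the 3 B lineage markers, 0 to 1 were above background on homozygous and on heterozygous arrays and 1 on wild-type arrays. The part of these cell types in the liver values was not tested.

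Elovl6 lay at 7.96, 8.37 and 8.60 in homozygous liver, at 8.78, 8.08 and 9.19 in heterozygous and at 9.56, 8.68 and 8.60 in wild-type liver. The highest homozygous and the lowest wild-type array were equal at this precision, and the heterozygous arrays spanned both. Its homozygous mean was 8.31 ± 0.32 and its wild-type mean 8.95 ± 0.53, a difference of -0.64 ± 0.32. Wild-type replicate 1 carried much of it, and without that array the difference was -0.33. Elovl3 and Elovl6 thus took opposite signs in homozygous against wild-type liver and the Elovl6 arrays of those groups lay next to each other at 8.60.

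The other elongases of liver differed little. Elovl1 averaged 9.71 ± 0.10 in homozygous and 9.79 ± 0.35 in wild-type liver, a difference of -0.08 ± 0.19. Elovl2 averaged 7.94 ± 0.07 in homozygous and 7.65 ± 0.16 in wild-type liver, a difference of 0.30 ± 0.14. Elovl5 averaged 13.15 ± 0.16 in homozygous and 13.32 ± 0.03 in wild-type liver, a difference of -0.17 ± 0.13. The 3 further Elovl1 probes in liver gave 0.10, 0.12 and 0.13, so the signs of the Elovl1 probes disagreed while every size stayed below its SE.

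**Figure D2:**
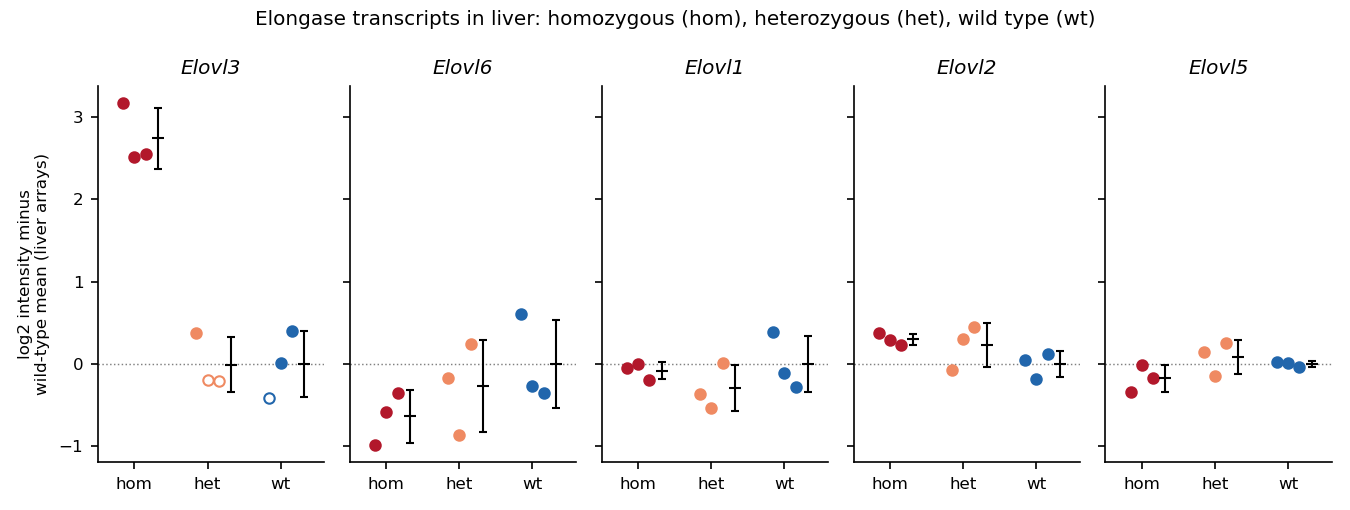
Log2 intensity of each elongase on the liver arrays, minus the gene's wild-type mean (y axis), for homozygous, heterozygous and wild-type mice; open points were not above background, and bars give the mean and SD of 3 arrays. Elovl3 stands 2.75 above wild type in homozygous liver, while Elovl6 lies 0.64 below with its arrays touching those of wild type.

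Genes whose pattern over the 9 liver arrays was most like that of Elovl3 were ranked by the mean absolute difference of log2 values, after each gene was centred on its own liver mean. The 5 nearest were Cyp2d9 at 0.29, C6 at 0.37, Mup20 at 0.38, Susd4 at 0.46 and Cib3 at 0.47, against a range of 3.59 for Elovl3 itself. Cyp2d9 encodes a male-biased steroid hydroxylase, C6 a terminal complement component and Mup20 the urinary pheromone darcin. All 3 are also in the list of male-biased liver genes used below. The ranking used the homozygous liver values that chose Elovl3, and that list was assembled with values of these arrays known. Nothing is therefore read from their overlap. Cyp2d9 averaged 12.61 ± 0.21 in homozygous, 9.68 ± 0.14 in heterozygous and 9.50 ± 1.01 in wild-type liver. Mup20 averaged 11.45 ± 0.42 in homozygous, 9.46 ± 0.37 in heterozygous and 8.86 ± 0.29 in wild-type liver.

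Nearest to Elovl6 by the same measure were Smpd3 at 0.11, Vpreb3 at 0.14, Acot4 at 0.15, Cyp4a14 at 0.15 and Fign at 0.17, against a range of 1.6. Smpd3 and Vpreb3 were close to background, with genotype means in liver of 4.62 to 5.16 and 4.84 to 5.39. Cyp4a14, a fatty acid omega-hydroxylase, averaged 13.02 ± 0.23 in homozygous, 13.57 ± 0.41 in heterozygous and 13.74 ± 0.69 in wild-type liver. Acot4, a peroxisomal thioesterase, averaged 8.02 ± 0.17 in homozygous, 8.72 ± 0.27 in heterozygous and 8.85 ± 0.52 in wild-type liver. The Elovl3 and Elovl6 patterns were themselves 1.45 apart, the widest gap among the 10 pairs of liver elongases, and Elovl1 and Elovl2 were the closest at 0.22. Every pair with Elovl3 was at least 1.14 apart and every pair without it at most 0.46. The wide gaps thus lay with Elovl3, and as its homozygous values chose the family, nothing more is read from them.

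The same measure was taken over all 27 arrays. Nearest to Elovl4 were Nsf at 0.23, which encodes a vesicle fusion ATPase, Rragb at 0.24 and Dpp10 at 0.26. Nearest to Elovl5 were Tspan31, Sc5d (lathosterol oxidase of cholesterol synthesis) and C77080, each at 0.23. Nearest to Elovl6 were Spg20 at 0.27 and Fgf1 and Rnf13 at 0.3. Elovl1 was followed by Afg3l1, Nucb1 and Pmm2 at 0.15 to 0.20, and Elovl2 by Ccs, Slc25a1 and Ech1 at 0.21 to 0.26. For Elovl3 the nearest was Cyp4a12b at 0.38, a male-biased fatty acid hydroxylase, ahead of Cib3 and Gm4956.

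Next come the enzymes that complete the elongation cycle. Of 6 partner genes measured in liver, 0 passed the limma test (adjusted p below 0.05 over all liver features) between homozygous and wild-type mice, where 1.42% of all features passed, so the count is near that share. Their median difference was 0.02, against 0 over all features. Hsd17b12, the ketoreductase, differed by 0.14 ± 0.17, and Tecr, the enoyl reductase, by -0.02 ± 0.12. The dehydratases Hacd1, Hacd2, Hacd3 and Hacd4 lay between -0.23 and 0.26.

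Most measured genes of fatty acid synthesis shared the negative sign of Elovl6, which differed by -0.64 ± 0.32 between homozygous and wild-type liver. Of 14 measured, 0 were higher and 4 lower in homozygous than wild-type liver at an adjusted p below 0.05, 13 had a negative sign, and the median was -0.56. Of all liver features, 0.758% were lower at that threshold. The list was chosen with earlier results of these arrays known, and BeadChip and genotype cannot be told apart for homozygous liver. The count and the p-values below are therefore descriptions, not independent evidence. The neutrophil lineage sums above were higher, and the B lineage sums lower, in the same homozygous than wild-type livers. Many of these markers were not above background there, and their part in the count of lower genes was not tested. Srebf1, which encodes SREBP-1c, averaged 7.19 ± 0.16 in homozygous and 8.40 ± 0.17 in wild-type liver, a difference of -1.21 ± 0.16 (adjusted p = 0.00738, limma). Acly, the ATP citrate lyase, averaged 11.52 ± 0.20 in homozygous and 12.51 ± 0.18 in wild-type liver (-0.99 ± 0.14, adjusted p = 0.0129). Acacb, an acetyl-CoA carboxylase, differed by -0.78 ± 0.12 (adjusted p = 0.0158). Pnpla3, a lipid droplet acyl hydrolase, was not above background on any homozygous array and was at least 2.24-fold brighter in wild-type liver (adjusted p = 0.0291). Thrsp differed by -1.06 ± 0.23 and did not pass (adjusted p = 0.0544).

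Between heterozygous and wild-type liver 0 of the 14 synthesis genes passed, 7 had an unadjusted p below 0.05 (7.2% of all features did), and the median was -0.38. Thrsp there differed by -1.01 ± 0.23 (adjusted p = 0.347) and Srebf1 by -0.63 ± 0.16 (adjusted p = 0.41). Between homozygous and heterozygous liver 0 of 14 passed either, with a median of -0.22.

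In the lists of neighbouring steps 0 genes passed in homozygous against wild-type liver, a count near the 1.42% of all features. Of 5 desaturases measured the median was -0.17, and Scd1, the stearoyl-CoA desaturase acting after Elovl6, differed by -0.76 ± 0.33 (adjusted p = 0.277). Of 4 ceramide synthases, which use very long acyl-CoAs, the median was -0.32. The 4 genes of SREBP processing had a median of 0.11, the 9 acyl-CoA synthetases -0.12 and the 9 genes of peroxisomal very long chain oxidation -0.05. Of the 11 clock genes 0 passed, with a median of 0.13.

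Sex-biased liver genes were set beside Elovl3 because Elovl3 is male-biased in mouse liver. All 8 male-biased genes measured were higher in homozygous than wild-type liver at an adjusted p below 0.05 (0.664% of all features), with a median of 2.85. Among them Cyp4a12a, a fatty acid omega-hydroxylase, differed by 5.11 ± 0.42. All 7 female-biased genes were lower at the same threshold (0.758% of all features), with a median of -3.1, and among them the sulfotransferase gene Sult2a2 differed by -6.54. These lists were assembled with earlier values of the same arrays known. Neither their direction nor the number past the threshold is therefore independent evidence, and both are given as descriptions. The Xist probe was above background on all 9 liver arrays, with overlapping groups (8.39 to 9.71 in homozygous, 8.47 to 10.05 in heterozygous and 9.16 to 9.45 in wild-type liver), and the probe of the Y-linked Kdm5d was above background on 0 of 9. The probe of Eif2s3y, also Y-linked, was above background on 1 of 3 homozygous arrays (range 4.55 to 4.94), 2 of 3 heterozygous arrays (4.71 to 5.14) and 0 of 3 wild-type arrays (4.49 to 4.79). Its values thus lay close to background in every liver group.

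**Figure D3:**
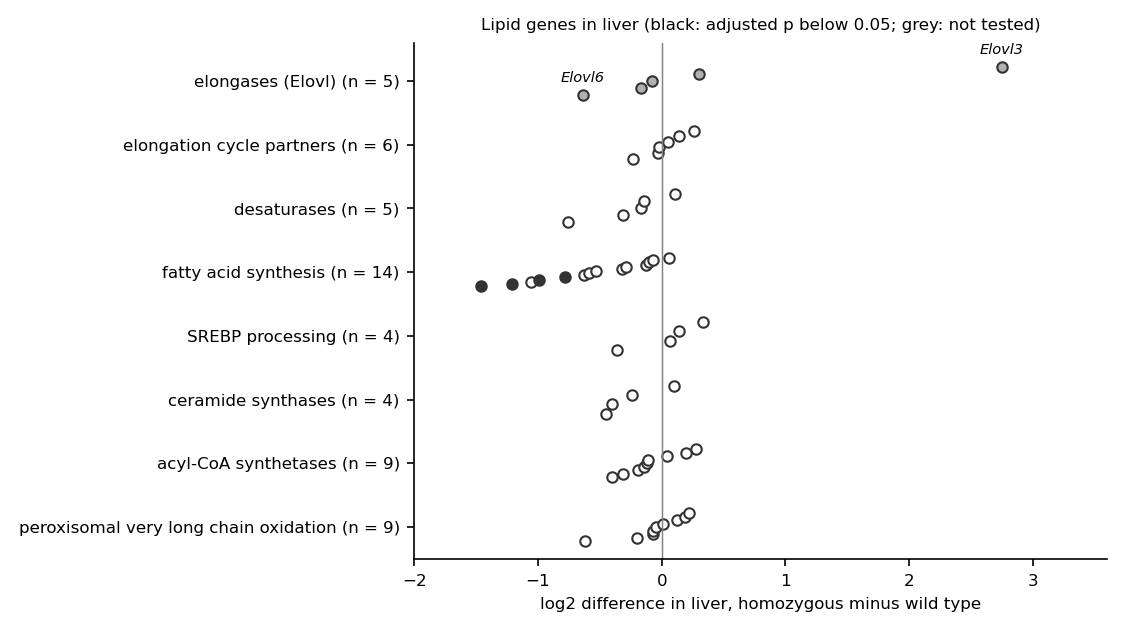
Log2 difference between homozygous and wild-type liver (x axis) for each measured gene of the elongase family and of 7 lists of lipid genes. These lists were chosen with earlier results of the same arrays known. Black points passed an adjusted p of 0.05 over all liver features, white points did not, and the grey elongases were not tested; the 4 black points, Pnpla3, Srebf1, Acly and Acacb from left to right, all belong to fatty acid synthesis, and Elovl3 lies alone at 2.75.

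The heterozygous liver contrast had no part in choosing the family and was tested. Of the 5 elongases, 0 passed by limma, 0 had an unadjusted p below 0.05, and 0% of all 11745 features passed (846 had an unadjusted p below 0.05). Elovl3 averaged 5.02 ± 0.34 in heterozygous and 5.02 ± 0.40 in wild-type liver, a difference of 0.00 ± 0.25 (interval -0.56 to 0.56, adjusted p = 1). The Elovl3 probe was above background on only 1 of 3 heterozygous and 2 of 3 wild-type liver arrays, so a fall could hardly show. Elovl6 averaged 8.68 ± 0.56 in heterozygous and 8.95 ± 0.53 in wild-type liver, a difference of -0.26 ± 0.32 (adjusted p = 0.917). The remaining differences were -0.29 for Elovl1, 0.23 for Elovl2 and 0.09 for Elovl5.

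In brain 5 elongases could be tested, with Elovl4 in place of Elovl3. None passed the limma test in any of the 3 genotype pairs, and none had an unadjusted p below 0.05. Over all 14423 brain features 0.00693% passed in homozygous against wild-type, 0.00693% in homozygous against heterozygous and 0% in heterozygous against wild-type brain. Brain Elovl4 lay at 9.87, 9.87 and 9.79 on homozygous, 9.86, 10.05 and 9.93 on heterozygous and 10.17, 9.88 and 9.84 on wild-type arrays, so the groups overlapped. Its homozygous minus wild-type difference was -0.12 ± 0.10 (interval -0.35 to 0.12, adjusted p = 0.993).

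Brain Elovl6 averaged 8.58 ± 0.28 in homozygous and 8.60 ± 0.18 in wild-type mice, a difference of -0.02 ± 0.16 (interval -0.39 to 0.34, adjusted p = 0.997). Brain Elovl5 was 10.95, 11.09 and 11.06 on homozygous and 11.10, 11.17 and 11.10 on wild-type arrays. These groups did not overlap, as for 10.7% of all brain features, and the difference of -0.09 ± 0.08 did not pass (adjusted p = 0.993). Brain Elovl1 differed by -0.04 ± 0.10 and Elovl2, near background, by -0.26 ± 0.17. The other 2 pairs gave differences between -0.19 and 0.05. Among the lipid and clock lists of brain, 0 genes passed in any pair.

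**Figure D4:**
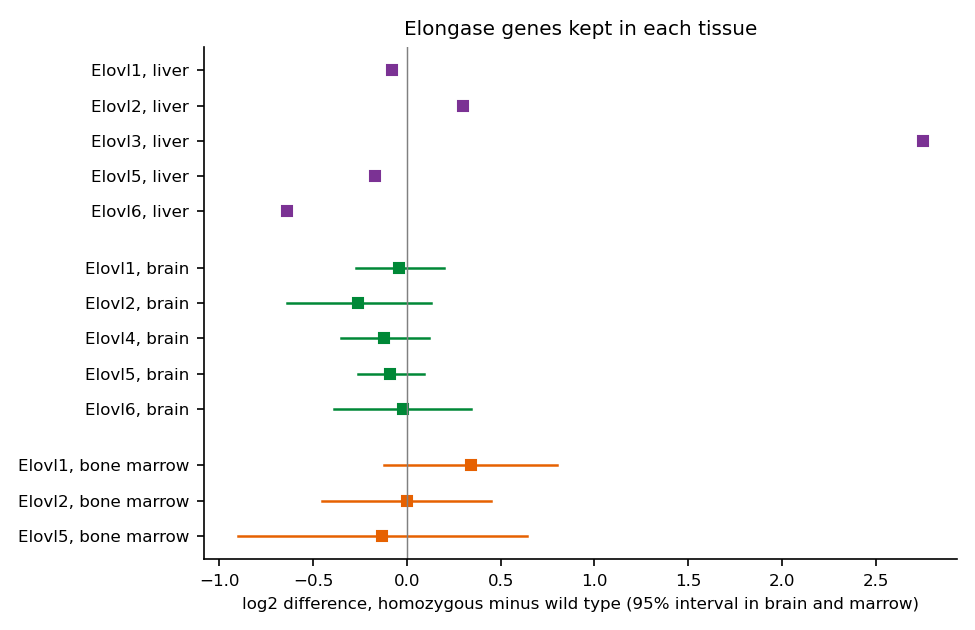
Log2 difference between homozygous and wild-type mice (x axis) for each elongase kept in liver, brain and bone marrow, with its 95% interval in brain and bone marrow, where it was tested. Elovl3 in liver, chosen for this difference, lies at 2.75, while the 8 intervals of brain and marrow include 0; the marrow arrays carry the homozygous label only.

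In bone marrow 3 elongases (Elovl1, Elovl2 and Elovl5) were above background often enough to test. None passed by limma in the 3 genotype pairs, none had an unadjusted p below 0.05, and of all 11507 features 1.10% passed between arrays labelled homozygous and wild type (0.826% lower), 0.669% between labelled homozygous and heterozygous and 0% between heterozygous and wild type. Over all features the median difference between labelled homozygous and wild-type arrays was -0.12, a shift against which the values below should be read.

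Marrow Elovl5 lay at 6.98, 8.20 and 6.59 on the arrays labelled homozygous, at 7.23, 7.25 and 7.27 on heterozygous and at 7.47, 7.44 and 7.26 on wild-type arrays. The second labelled-homozygous array was above every other marrow array and the other 2 were below all of them. The summed hepatocyte marker signal was 20489 on that array, with 6 of 8 markers above background, against 221 and 169 on the other 2 labelled homozygous, 150 to 309 on heterozygous and 62 to 92 on wild-type arrays. Its neuron markers also summed to 606, with 3 of 5 above background, against 28 to 122 on the other 8 arrays.

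With all arrays, Elovl5 differed by -0.13 ± 0.35 between labelled homozygous and wild-type marrow (adjusted p = 0.819). Without that array the difference was -0.60 ± 0.20 and passed (adjusted p = 0.0421), but in that fit 32.6% of all features passed (3569 of 10963), so the call does not set Elovl5 apart. With all arrays kept and array weights it also passed, at -0.42 ± 0.15 (adjusted p = 0.0263), where 57.3% of features passed. Among the alternatives tried, Elovl5 passed only in these settings, in a group whose labels the Mysm1 probe did not fully bear out. Whether the array weights acted through the second array was not tested. Against heterozygous marrow the difference without that array was -0.46 ± 0.20 (adjusted p = 0.141).

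Marrow Elovl1 was 7.32, 7.43 and 7.33 on labelled-homozygous arrays, 6.99, 7.59 and 7.17 on heterozygous and 6.97, 6.94 and 7.15 on wild-type arrays. The labelled-homozygous arrays were all above wild type, as the groups of 30.9% of all marrow features did not overlap, and the difference of 0.34 ± 0.21 did not pass (adjusted p = 0.309). Groups of heterozygous and wild-type marrow did not overlap for 1 of the 3 elongases, Elovl2, against 26.4% of features, and those of labelled-homozygous and heterozygous marrow for 0 of 3, against 15.1%. The Elovl1 probes disagreed in marrow. ILMN_1224780 was 4.81, 4.67 and 5.45 on heterozygous and 5.83, 5.81 and 6.00 on wild-type arrays, a difference of -0.90 ± 0.27 (adjusted p = 0.473), whereas the brightest Elovl1 probe differed by 0.23 ± 0.21 in the same pair. Elovl2 averaged 4.79 ± 0.26 on labelled-homozygous and 4.78 ± 0.09 on wild-type arrays. Among the lipid and clock lists of marrow, 0 genes passed in any pair.

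**Figure D5:**
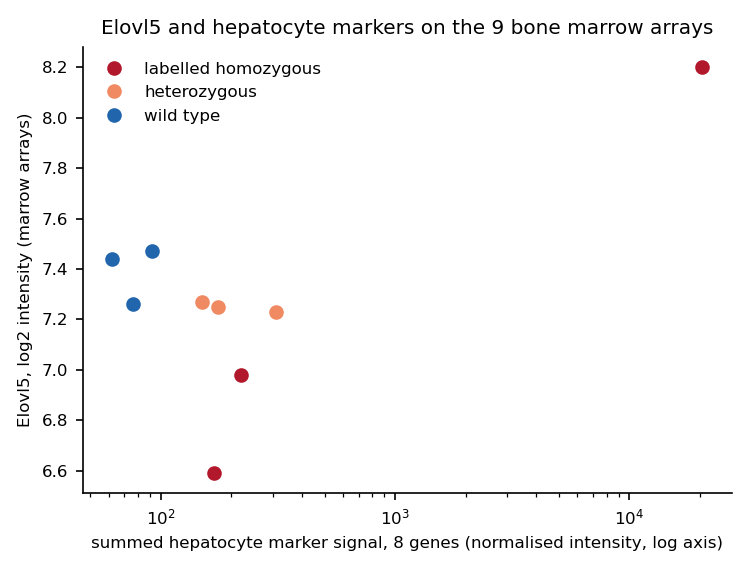
Elovl5 log2 intensity (y axis, marrow arrays scaled by themselves) against the summed normalised signal of 8 hepatocyte markers (x axis, log scale) on the 9 bone marrow arrays. The array at 20489 on the x axis has Elovl5 at 8.20, while the other 8 lie between 62 and 309 and between 6.59 and 7.47.

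Whether an effect differed between tissues was tested for the contrasts that did not choose the family, over all 27 arrays and 6 elongases. Arrays of different tissues were taken as separate animals, although the sources did not state this. For the heterozygous effect, 0 of 6 passed in liver minus brain (0% of 17374 features), 0 of 6 in liver minus bone marrow (1.93%) and 0 of 6 in brain minus bone marrow (1.48%). For the homozygous effect, 0 of 6 passed in brain minus bone marrow (11.4%), where the marrow side rests on the arrays labelled homozygous. Elovl3 was above background on 1 of 9 brain and 2 of 9 marrow arrays, and Elovl4 on 0 of 9 liver and 2 of 9 marrow arrays. An effect could hardly show in a tissue at background, so these counts say little about those genes. The single unadjusted p below 0.05 belonged to Elovl1, whose heterozygous effect was -0.50 ± 0.24 in liver minus marrow (unadjusted p = 0.047, adjusted p = 0.298 by limma). For Elovl6 the homozygous effect in brain minus marrow was 0.50 ± 0.40 (adjusted p = 0.441), with marrow near background.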

How the data were processed

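RNA of 27 tissue samples was measured on Illumina BeadChips; per the labels, total RNA was labelled with biotin after amplification. Per the file headers, the deposited scanner table holds a mean signal (linear intensity), a standard error over beads, a bead count and, probe by probe, a p-value of detection. Per the submitters' processing notes BeadStudio and limma were used, with no versions or order of steps given. Array medians of the deposited intensity were 68.5 to 99.8, so it was not normalised between arrays. The authors' processed table, also linear intensity, had column medians of 85.4 to 85.6 and differed by at most 2.29% from quantile-normalised signals. All 27 of its columns matched their own scanner column best, and it was used as an alternative.

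Signals were corrected and quantile-normalised with limma's neqc (limma 3.58.1, R 4.3.3, offset 16) and taken to log2, over the 9 arrays of a tissue for genotypes and over all 27 for tissues. A probe was kept where its detection p was below 0.05 on 3 or more arrays. Of 45281 probes, 34885 had 1 symbol in the platform annotation, 18 several and 10378 none. Genotypes were compared with lmFit and eBayes, two-sided, over the 9 arrays of a tissue, with Benjamini-Hochberg adjustment over all features and a threshold of 0.05. Tissue differences in an effect were contrasts of a fit over 27 arrays, taken as separate animals. If tissues shared animals, those p-values do not allow for it. Marker sums are normalised intensities less the offset. The fit was checked on simulated data. Where the labels do not say that arrays are separate animals, p-values measure the spread between these samples; the number of arrays limits the precision.

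The members, lists, motifs and tests were chosen with earlier results of these data known. Named genes are every Elovl probe, the nearest genes by likeness (5 in liver, 3 over all arrays) and the members of the lists past the threshold or else those with the smallest p; the partner enzymes, Thrsp and Scd1 were named for their roles. Within a tissue, replicate numbers did not pair the arrays of different genotypes. Pairing of arrays across tissues was not tested. Alternatives were the background correction, offset, filter, array weights, replicate block, joint fit, probe choice and leaving out each array. No array duplicated another.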

Additional observations from a re-analysis of the deposited data

How the results depend on the processing

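Of 208 alternative values, 196 kept their direction and their side of the threshold or stayed within the spread between replicates. Many of them vary values that chose the family: the homozygous liver calls, the liver differences of Elovl3 and Elovl6 and the tissue counts. In brain hardly any feature passed in any setting. The 196 is therefore a description, not a measure of support. The number of genes highest in liver, 5, was counted among the 196 although it ran from 4 to 6. It was 6 in heterozygous and in homozygous arrays, where Elovl7 joined, and 4 where Elovl3 left with 1 wild-type array out. The 12 that moved were these. The liver Elovl3 difference of 2.75 was 1.91 with an offset of 50, 1.45 without background correction and 1.5 in the authors' processed values, settings that leave more background or a larger constant in dim signals. It ran from 2.52 to 2.95 over leaving out 1 array, and that of Elovl6 from -0.81 to -0.33. In labelled-homozygous against wild-type marrow, 0 elongases passed, against 2 with array weights (Elovl1 at 0.34 ± 0.13, adjusted p = 0.0408, and Elovl5 at -0.42 ± 0.15, adjusted p = 0.0263, limma) and 0 to 1 when 1 array was left out, the 1 being Elovl5 without homozygous replicate 2. With array weights 6589 of all 11507 marrow features passed, and the cause was not tested. The number of genes highest in brain was 1, and 2 with no scaling between arrays (a setting added after seeing the data). The number highest in bone marrow was 1 (Elovl7, at background). It was 0 in heterozygous arrays, 0 in homozygous arrays, 0 with no scaling, and 1 to 2 when 1 wild-type array was left out; Elovl3 was the second without liver replicate 3 or marrow replicate 1 or 2.

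With the replicate number as a block, Elovl3 in liver was 2.75 and Elovl6 was -0.64, and no call of an elongase changed. Same-numbered liver arrays of homozygous and wild-type mice correlated at 0.1 to 0.23 in their deviations. No pair of genotypes within a tissue had all its correlations over 0.1. Same-numbered arrays of different tissues were not compared.

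Counts over all features varied more than those of the elongases. For homozygous against wild-type liver 167 features passed, with 46 (without homozygous replicate 2) to 385 (array weights) over the alternatives. Against heterozygous liver it was 81, with 38 (without homozygous replicate 2) to 340 (array weights), and for heterozygous against wild-type liver 0, with at most 9. In brain the homozygous contrasts had 1 feature, with 0 to 2. In marrow the 2 labelled-homozygous contrasts had 127 (15 to 6589) and 77 (24 to 3019), and heterozygous against wild type had 0, with up to 2286 in the fit over all 27 arrays. No second probe of Elovl3 or Elovl6 was above background in liver, so that alternative gave no value. Elovl7 in every tissue, Elovl3 outside homozygous liver, Elovl4 in liver and marrow and Elovl6 in marrow were too close to background for these levels to be ordered among themselves.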
